A study of Mus musculus with 9 samples.

Results

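Psca and the Ly6 surface proteins were followed across mouse prostate cancer cells before and after tumour recurrence. The set holds 8 genes chosen by symbol: Psca, Ly6a, Ly6c1, Ly6d, Ly6e, Ly6k, Lypd3 and Plaur. Of these, 7 had a probe set (a group of short probes that reads a transcript) named by that symbol alone, out of 22180 genes named on the array, and they were read by 9 probe sets. Ly6a, which encodes the stem and progenitor cell antigen Sca-1, had no such probe set here and was not analysed here. All 7 measured genes were bright enough to be among the 15526 genes tested. Psca and Ly6e were known from earlier results to differ between recurrent and parental cells, so every value of that contrast is given as a description, with no test.

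The cells are MYCCaP, a mouse prostate cancer line from a tumour driven by a MYC transgene under a prostate-specific promoter, and all groups carry that transgene. The 3 AZD1208 lines came from recurrent tumours in castrated mice given AZD1208, an inhibitor of the PIM kinases, and the 3 vehicle lines came from recurrent tumours in castrated mice given vehicle. Both sets of recurrent lines were cultured without dihydrotestosterone (DHT), an androgen. The parental MYCCaP line was cultured with DHT and gave 3 technical arrays of 1 sample. Androgen in the medium and growth in a castrated mouse therefore cannot be told apart in any comparison with the parental line. Whether each line came from a mouse of its own is not stated, and the number of arrays limits the precision.

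Proteins of the Ly6/uPAR family share a small fold held together by disulphide bonds, the LU domain, and most are tethered to the outer face of the plasma membrane by a glycosylphosphatidylinositol (GPI) anchor. Many Ly6 genes lie side by side on mouse chromosome 15, and several respond to interferon or mark stages of epithelial and blood cell differentiation. Psca, the prostate stem cell antigen, is made by prostate, bladder and stomach epithelium and is studied as a target for antibodies and engineered T cells in prostate cancer. Plaur encodes the urokinase receptor, which holds the protease urokinase at the cell surface.

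All values are log2 intensities, so a difference of 1 is a doubling, and levels are compared between samples of 1 gene and never between genes. The array medians lay between 6.22 and 6.36. AZD1208 3 differed in direction: among genes with a mean under 8 its values were, at the median, 0.12 above the parental line, against -0.12 to 0.00 in the other recurrent lines. Vehicle 2, at -0.12, was shifted about as far the other way. Among genes with a mean of 9 or more AZD1208 3 was the lowest line (-0.12), against -0.058 to 0.088 in the others. The array quality weight of AZD1208 3, estimated for an alternative fit, 0.34, was the lowest of the 7 samples. Of the epithelial markers, Krt8, a luminal keratin, lay between 8.24 and 10.44 in the recurrent lines, against 9.19 for the parental cells. Of 7 tested genes of that list, 1 had all 6 recurrent lines above the parental mean, the basal factor Trp63 (0.43). Vehicle 1 was at 7.51 for Trp63, against 6.50 to 6.69 in the other recurrent lines and 6.28 in the parental line. All 6 lines were below for 3, Krt14 (-0.72), Cdh1 (-0.24) and Krt18 (-0.23, less than its technical SD of 0.30). The list's median was 0.01. Over all genes tested, 11.8% had all 6 lines above the parental mean and 10.8% all 6 below. Between AZD1208 and vehicle lines Cdh1 (0.19) and Grhl2 (-0.22) had the smallest p of the list (limma adjusted p = 1). Epcam was dim throughout, at 4.51 to 5.06 in the recurrent lines, against 4.99 for the parental cells, below the level of 5.81 under which genes were not tested.

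**Figure D1:**
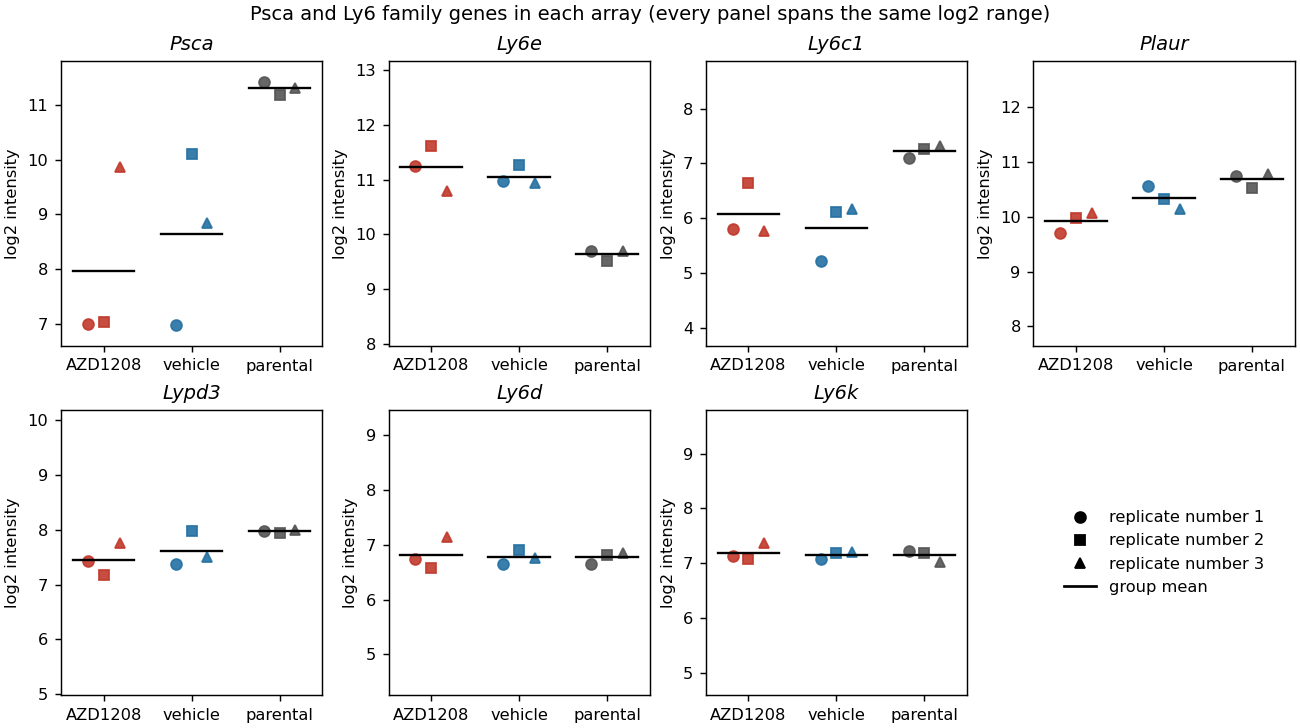
Log2 intensity (y axis) of the 7 measured genes in each array, grouped as AZD1208 lines, vehicle lines and parental technical arrays (x axis). Points are arrays, their shape is the replicate number and black bars are group means. Psca spreads over 3.12 log2 units among the 6 recurrent lines, all below the parental arrays, while all recurrent Ly6e values lie above them.

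Psca was lower in every recurrent line than in the parental line, and the lines differed widely. In such bulk RNA, fewer cells making a transcript and less of it per cell cannot be told apart. It was at 7.0, 7.04 and 9.86 in AZD1208 lines 1, 2 and 3, at 6.98, 10.11 and 8.85 in vehicle lines 1, 2 and 3, and at 11.42, 11.18 and 11.31 in the parental arrays. AZD1208 1, AZD1208 2 and vehicle 1 lay within 0.1 of each other at the bottom, vehicle 3 stood between, and AZD1208 3 and vehicle 2 came nearest to the parental level. The mean difference of recurrent lines from parental was -3.00, which is 8-fold lower, with an SD between lines of 1.48. Of the genes tested, 99.7% had a smaller SD between lines.

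Both recurrent groups were below the parental level. The mean was 7.97 ± 1.64 in AZD1208 lines, 8.65 ± 1.57 in vehicle lines (SD, n = 3 each) and 11.31 in the parental line. Set against the same parental sample, AZD1208 lines were 10.1-fold lower (-3.34) and vehicle lines 6.33-fold lower (-2.66). The order of the group means was parental, vehicle and AZD1208 from high to low, and the recurrent groups overlapped. Psca is a gene of differentiated prostate epithelium, and the keratin genes Krt4 and Krt6a, which stratified epithelia use, were also below the parental values in all 6 lines. Krt4 was highest in vehicle 2 (9.24) and AZD1208 3 (7.99), the lines that kept the most Psca, against 6.01 to 6.85 in the other recurrent lines and 12.79 in the parental line. Krt6a had another order, with vehicle 2 (8.48) and vehicle 3 (7.58) above AZD1208 3 (7.39), against 5.07 to 6.43 in the other recurrent lines and 11.68 in the parental line. These keratins had the largest differences of their list, and 12 of its 20 tested genes did not have all 6 lines on one side.

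Ly6e went the other way. This gene encodes a GPI-anchored, interferon-inducible protein that restricts the entry of some viruses. It was at 11.25, 11.62 and 10.80 in AZD1208 lines, at 10.98, 11.26 and 10.93 in vehicle lines, and at 9.70, 9.51 and 9.70 in the parental arrays. The lowest recurrent value, AZD1208 3, was above the highest parental array. The mean was 11.22 ± 0.41 in AZD1208 lines, 11.06 ± 0.18 in vehicle lines (SD, n = 3 each) and 9.64 in the parental line. The recurrent lines were 2.83-fold higher (1.5), or 3-fold higher in AZD1208 lines (1.59) and 2.68-fold higher in vehicle lines (1.42). Their SD of 0.30 was small beside that difference, unlike the SD of Psca.

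Ly6c1, a surface antigen of monocytes and of some endothelial and T cells, was lower in every recurrent line. It was at 5.80, 6.65 and 5.76 in AZD1208 lines, at 5.22, 6.11 and 6.16 in vehicle lines, and at 7.10, 7.26 and 7.32 in the parental arrays. The mean difference was -1.28, 2.43-fold lower, with vehicle 1 lowest and AZD1208 2 highest among the recurrent lines. AZD1208 1, AZD1208 3 and vehicle 1 lay below 5.81, the mean level under which genes were not tested. The fold and the order of these dim values are therefore less certain. Its neighbour and close paralogue Ly6c2 was likewise lowest in vehicle 1 and highest in AZD1208 2 among the recurrent lines, at 8.09, 8.37 and 7.84 in AZD1208 lines, 6.82, 8.0 and 8.21 in vehicle lines and 8.97 in the parental line (-1.08). Probes of close paralogues can read both transcripts, and whether these do was not tested, so the separate values of this pair are uncertain.

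The bases just upstream of Ly6c1 and Ly6c2 show how alike this stretch is in the pair, and are given 5′ to 3′ from RefSeq (build GRCm38.p6, minus strand) up to the outermost annotated edge of each gene, which lies upstream of the start on which its promoter window was placed, at chr15:75048921-75049087 for Ly6c1 and chr15:75112067-75112221 for Ly6c2. Capitals mark runs of at least 10 aligned bases that are identical in both.
Ly6c1: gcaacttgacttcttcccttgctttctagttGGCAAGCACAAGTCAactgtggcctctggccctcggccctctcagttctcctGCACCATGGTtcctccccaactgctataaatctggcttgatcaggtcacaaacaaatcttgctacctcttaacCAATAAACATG
Ly6c2: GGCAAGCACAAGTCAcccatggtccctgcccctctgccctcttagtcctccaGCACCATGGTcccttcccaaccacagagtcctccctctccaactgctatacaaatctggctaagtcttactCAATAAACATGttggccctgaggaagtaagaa
Of 130 aligned bases 102 were identical, 78.5%, with 3 such runs and a longest run of 15 bases. Promoter windows of 300 bases were searched on both strands for TTCNNNGAA, a STAT site of interferon-responsive genes, for TGANTCA, an AP-1 site, and for AGAACA, the half-site bound by the androgen receptor. These letters were found in 8.3%, 7.81% and 19% of all 32851 windows, and in none of the windows of Ly6c1, Ly6c2 or Lypd3. Of the members only Ly6c1, Lypd3 and Plaur had such a window. Psca, Ly6a, Ly6d, Ly6e and Ly6k had none, so their promoters were not searched. Whether matches of different motifs overlapped did not arise, since the members' windows that were searched held 1 match in all, in Plaur.

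Plaur was lower in all 6 recurrent lines, by less than Psca and Ly6c1. It was at 9.71, 9.98 and 10.08 in AZD1208 lines, at 10.57, 10.33 and 10.14 in vehicle lines, and at 10.74, 10.53 and 10.78 in the parental arrays. Vehicle 1, at 10.57, was above the lowest parental array, so the vehicle and parental values overlapped, while all AZD1208 lines were below every parental array. The difference from the parental mean was -0.76 in AZD1208 lines and -0.34 in vehicle lines, beside a technical SD of 0.13. The Plaur window held 1 match to TGANTCA, 62 bases before the annotated start used there, shown with its flanks at chr7:24462404-24462430 (build GRCm38.p6, plus strand, the match in capitals).
Plaur: cccctggagcTGACTCActctttagca

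Lypd3, which encodes C4.4A, a urokinase-receptor relative of stratified epithelia, was at 7.43, 7.18 and 7.76 in AZD1208 lines, 7.38, 7.97 and 7.50 in vehicle lines and 7.98, 7.94 and 7.99 in the parental arrays. Vehicle 2 matched the parental level and the other 5 lines were below it (mean difference -0.43). A second Lypd3 probe set differed by only -0.06, so the 2 probe sets of this gene disagree on the size. Ly6d, which in mouse prostate marks luminal cells that survive castration, showed little difference. It was at 6.74, 6.58 and 7.14 in AZD1208 lines, 6.65, 6.91 and 6.76 in vehicle lines and 6.66, 6.81 and 6.85 in the parental arrays (0.02). Ly6k, which mouse sperm need to migrate through the oviduct, was at 7.07 to 7.37 in AZD1208 lines, 7.07 to 7.21 in vehicle lines and 7.02 to 7.23 in the parental arrays (0.03), and its other probe set differed by -0.14. Both Ly6d and Ly6k were highest in AZD1208 3, the array whose dim genes stood high, and the part of that shift in their values was not tested.

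In all, 4 of the 7 measured genes had all 6 recurrent lines on one side of the parental mean, Ly6e above it (11.8% of all genes tested were) and Psca, Ly6c1 and Plaur below it (10.8% were). The median difference over the 7 genes was -0.43 (-0.245 where the probe sets of a gene were averaged), against -0.02 over all genes tested. Since the genes were picked with this contrast in view, neither figure says anything about the family.

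**Figure D2:**
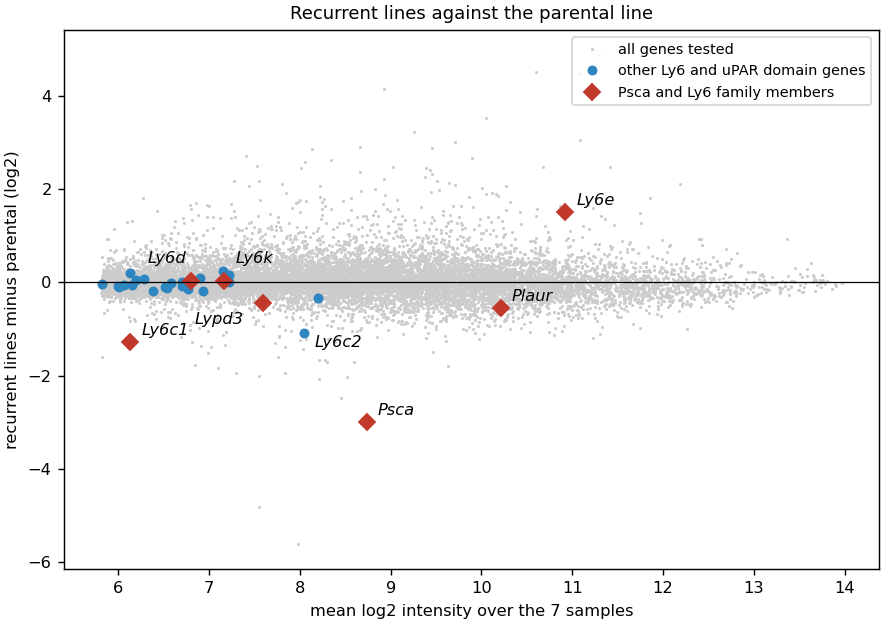
Difference of the 6 recurrent lines from the parental line (log2, y axis) against the mean log2 intensity over the 7 samples (x axis) for all genes tested (grey), other Ly6 and uPAR domain genes (blue circles) and the 7 measured members (red diamonds). Apart from Ly6c2 at -1.08, the blue points lie between -0.33 and 0.25, while Psca lies at -3.00 and Ly6e at 1.5.

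Most other genes of the family lay near the parental level. Of 40 further Ly6 and uPAR domain genes listed, 36 were measured and 22 tested. Of the 22, 1 had all 6 lines below the parental mean (Ly6c2) and 0 had all 6 above, and the median difference was -0.06. Apart from Ly6c2 the tested genes differed by between -0.33, for the nicotinic receptor modulator Lynx1, and 0.25, for the germ cell gene Tex101. Among those not tested Ly6i was also below in all 6 lines (-0.18), less than its technical SD of 0.29. Cd59a, the complement inhibitor gene, was also too dim to be tested and had the largest difference from parental of the listed genes after Ly6c2 (0.78). It was at 5.52, 6.99 and 5.13 in AZD1208 lines, 6.51, 5.23 and 6.06 in vehicle lines and 5.13 in the parental line. The count of tested genes on one side was 8 without AZD1208 3, when the share over all genes tested was 41.5%, against 22.6% with all lines. Between AZD1208 and vehicle lines Tex101 (0.70, SE 0.43) and Lypd8 (0.25, SE 0.16) had the smallest p of these genes (limma adjusted p = 1).

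On chromosome 15, 26 genes of the RefSeq table lie from Psca to Ly6c1, and 16 of them had a named probe set. Of the 11 that are not members, 2 had all 6 lines below the parental mean, Them6 and Ly6i, and 0 had all 6 above. Ly6i was among the 3 of the 11 too dim to be tested, and its difference (-0.18) was less than its technical SD of 0.29. Of the tested non-members only Them6 was below in all lines. Over all genes tested the shares were 10.8% and 11.8%. The nearest measured genes on either side of Psca, Arc and Them6, were both lower in all 6 lines. Arc, known as an activity-induced gene of neurons, was at 8.16, 9.06 and 10.24 in AZD1208 lines, 8.72, 10.43 and 9.97 in vehicle lines and 10.68 in the parental line. Them6, which encodes a thioesterase superfamily protein, was at 11.47, 10.28 and 11.91 in AZD1208 lines, 11.22, 11.64 and 11.79 in vehicle lines and 12.11 in the parental line. As for Psca, vehicle 2 and AZD1208 3 were the highest recurrent lines for Arc. Further along the cluster Ly6e was higher and Ly6c1 lower, with Ly6d, Ly6k and Ly6m near the parental level between them and Psca.

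**Figure D3:**
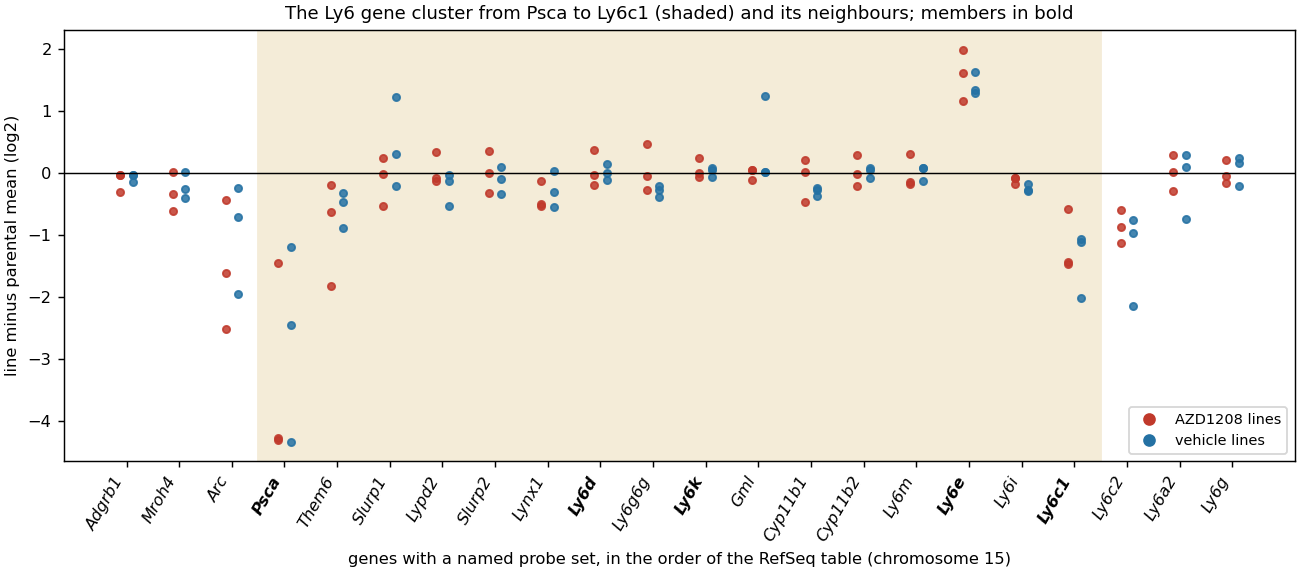
Each recurrent line minus the parental mean (log2, y axis) for genes with a named probe set in chromosomal order (x axis), from Psca to Ly6c1 (shaded) with 3 measured neighbours on each side. AZD1208 lines are red and vehicle lines blue. Psca and its neighbours Arc and Them6 lie below 0 in all lines, Ly6e lies above, and most genes between them lie around 0.

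Likeness of profile was measured as the root mean square distance between log2 values over the 7 samples, each gene centred on its own mean, and is a description. The gene nearest to Psca was Tigit, an inhibitory receptor gene of lymphocytes, at a distance of 0.49, where Psca's own distance from a flat profile was 1.64. Tigit was at 6.76, 7.67 and 9.30 in AZD1208 lines, 6.62, 9.25 and 9.01 in vehicle lines and 10.58 in the parental line. Next came the sodium channel subunit gene Scnn1g (0.80), Arc (0.85), the potassium channel subunit gene Kcne3 (0.85) and Krt6a (0.88). Nearest to Ly6e were Cpe, which encodes carboxypeptidase E (0.16), Ston1 (0.18), Ccpg1, a receptor for autophagy of the endoplasmic reticulum (0.18), the glutathione transferase gene Gsta4 (0.19) and Tshz1 (0.20), where the flat-profile distance of Ly6e was 0.58.

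**Figure D4:**
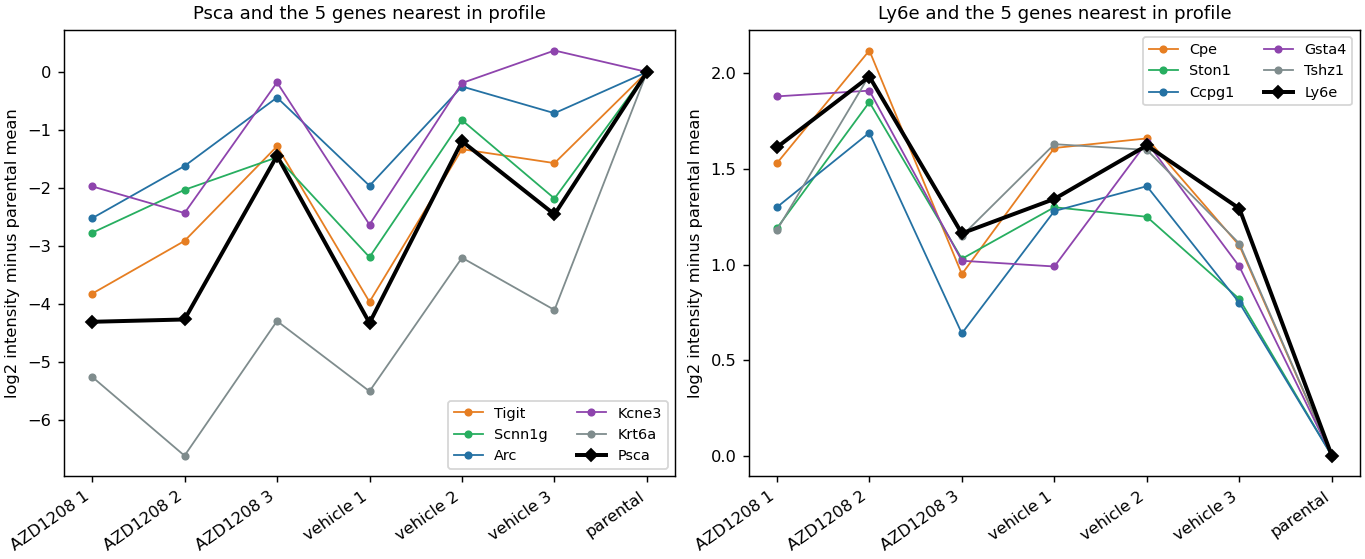
Log2 intensity minus the parental mean (y axis) in each recurrent line and the parental line (x axis) for Psca (left panel, black) and Ly6e (right panel, black) with the 5 genes nearest to each in profile (colours). In the left panel each gene is higher in AZD1208 3 than in AZD1208 1 and AZD1208 2, and higher in vehicle 2 than in vehicle 1, and those beside Ly6e peak in AZD1208 2.

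The study asked how AZD1208 affects gene expression in the recurrent tumours. For these genes no difference between AZD1208 and vehicle lines passed the test. Plaur was the gene with the clearest separation: all 3 AZD1208 lines (9.71 to 10.08) were below all 3 vehicle lines (10.14 to 10.57), with means of 9.92 ± 0.19 and 10.35 ± 0.22 (SD, n = 3 each). The difference was -0.42 (SE 0.18), 1.34-fold lower, with an unadjusted p of 0.0488 (0.367% of all genes had one under 0.05 and were lower in AZD1208 lines) and an adjusted p of 1 over all genes (limma). Such a lack of overlap was seen for 1 of the 7 genes, and lower in AZD1208 lines for 1.98% of all genes tested (3.39% in either direction). The closest values of the groups, 10.08 and 10.14, overlapped once the arrays were quantile normalized.

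Psca differed by -0.68 (SE 0.98) with a 95% interval from -2.96 to 1.61, which leaves room for a difference of several fold either way. Ly6e differed by 0.16 (SE 0.23), Ly6c1 by 0.24 (SE 0.34) and Lypd3 by -0.16 (SE 0.22). Ly6d differed by 0.05 (interval -0.39 to 0.49) and Ly6k by 0.04 (interval -0.32 to 0.39). Each of these 6 was smaller than its SE, with an adjusted p of 1 (limma). Their signs rested on single lines: Psca was at 0.055 and Lypd3 at 0.017 without vehicle 2, Ly6e at -0.033 without AZD1208 2, and Ly6c1 at -0.067 without vehicle 1 and -0.055 without AZD1208 2. Without AZD1208 3 Psca was at -1.62, Ly6d at -0.11 and Ly6k at -0.053, and without vehicle 1 Ly6d was at -0.011 and Ly6k at -0.005. Over all genes 0 of 15526 passed (0% called, limma) and 81 had an unadjusted p under 0.05 (0.522%). The median over the 7 genes was 0.04, against -0.02 over all genes tested. It was -0.11 without AZD1208 3, -0.067 without vehicle 1, -0.033 without AZD1208 2 and -0.055 with array quality weights.

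**Figure D5:**
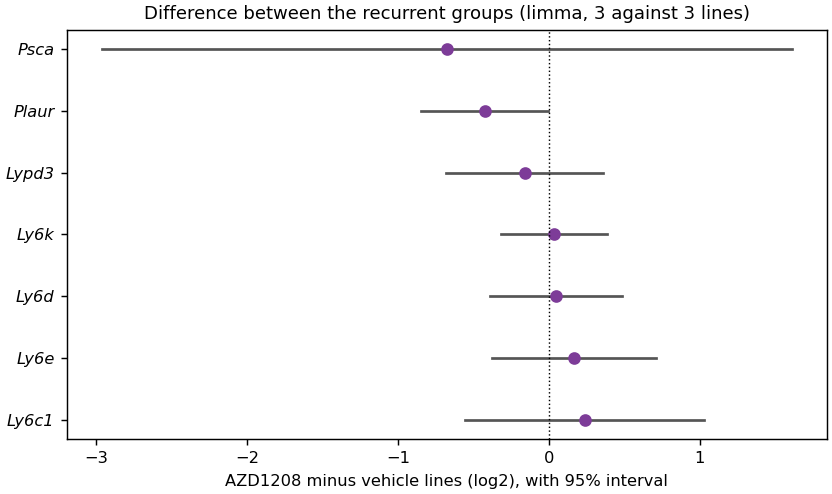
AZD1208 minus vehicle difference (log2, x axis) for each measured gene (y axis), with the 95% interval of the limma fit (3 against 3 lines). The interval of Psca runs from -2.96 to 1.61, and that of Plaur ends just below 0 before adjustment over all genes.

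The partners of these proteins were described from lists. For the urokinase system around Plaur, 15 of 18 genes were measured and 12 tested. Of the 12, 5 had all 6 lines above the parental mean and 0 below, with a median difference of 0.20. Over all genes tested the shares were 11.8% above and 10.8% below. Lrp1, the endocytic receptor that clears urokinase complexes and uPAR, was at 10.26, 11.32 and 9.26 in AZD1208 lines, 10.68, 9.36 and 9.97 in vehicle lines and 7.12 for the parental cells. Its mean was 8.13-fold higher (3.02). Plat, the tissue plasminogen activator, was 3-fold higher (1.59), and the uPAR-binding matrix protein gene Vtn, vitronectin, was 2.32-fold higher (1.22). Vtn varied between lines, from 9.51 in vehicle 1 to 6.73 in vehicle 2, against 6.63 in the parental line (technical SD 0.13). The integrin subunit gene Itgb5 was 1.41-fold higher (0.50), with vehicle 1 at 13.09 and the other lines at 11.60 to 12.37. By mean difference 7 of the 12 were higher and 5 lower. Among the lower ones were Plau, the gene of urokinase itself (-0.33, 5 lines below and 1 above), and Itgb3 (-0.60, 4 below and 2 above). None of the 12 passed between AZD1208 and vehicle lines, where Mrc2 (0.22) and Itga5 (-0.17) had the smallest p (limma adjusted p = 1). Agr2, a reported ligand of human C4.4A, was dim at 4.4 to 4.82 in recurrent lines, against 4.39 for the parental cells, as was Agr3.

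Genes that build and attach the GPI anchor were mostly near the parental level. Of 30 listed, 26 were measured and tested. All lines were above the parental mean for 6 and below it for 3 (median 0.09), against 11.8% and 10.8% of all genes tested. Among the genes with all lines on one side, the largest differences were Pgap3, which remodels the anchor's lipid (0.43), Pigg (0.27), Pigq (-0.27) and Pigv (0.26). Pgap1 had the largest difference of the whole list (-0.73), with 5 lines below the parental mean and 1 above. Pign (0.39), Dpm1 (0.37) and Gpaa1 (-0.345), whose lines also lay on both sides, differed by more than Pigg. Between AZD1208 and vehicle lines 22 of the 26 were lower in AZD1208 lines, with a median of -0.08, where 8511 of the 15526 genes tested were lower, and 0 passed (limma, 0 at an unadjusted p under 0.05). Piga (-0.33) and Pigw (-0.24) had the smallest p.

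For interferon response genes, to which Ly6e belongs, 18 of 24 were tested. All 6 lines were above the parental mean for 7 and below it for 1, against 11.8% and 10.8% of all genes tested. Ifit3, counted among the 7, differed by 0.12, less than its technical SD of 0.28. By mean difference 12 of the 18 were higher and 6 lower, and the list's median was 0.14. Ifi27 was 2.44-fold higher (1.29), Ifit2 1.44-fold higher (0.52) and Usp18 1.41-fold higher (0.50), while Isg15 was 1.28-fold lower (-0.36). Between AZD1208 and vehicle lines 14 of the 18 were higher in AZD1208 lines (median 0.11), where 7015 of the 15526 genes tested were higher, and 0 passed, with Ifitm3 (0.48) and Oasl2 (0.44) nearest (limma adjusted p = 1). Of 20 tested genes of stratified epithelium, 7 had all lines below the parental mean and 1 above (median -0.21). Over all genes tested the shares were 10.8% and 11.8%. Krt4 (-5.62) and Krt6a (-4.82) were followed by Krt13 (-0.63), and Sprr1a was higher (1.0) with AZD1208 2 alone at 10.51 and the other recurrent lines at 6.66 to 7.47. Krt6a (-1.12) and Tgm1 (0.23) had the smallest p between AZD1208 and vehicle lines, and neither passed (limma adjusted p = 1).

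Ly6c1 and Plaur are also made by leukocytes, endothelium or stroma, so markers of those cells were read in the same cultures. Over all genes tested, 11.8% had all lines above the parental mean and 10.8% all below, shares to set beside the counts of these lists. Of the leukocyte list 8 of 12 measured genes were tested, 1 with all lines above the parental mean (Cd68, 0.40) and 0 below. Of the 4 genes too dim to be tested, Ptprc, the pan-leukocyte gene for CD45, was at 4.49 to 5.12 in recurrent lines, against 4.85 for the parental cells, and Itgam (-0.13) and Cd52 (0.11) differed little. Lyz2, the lysozyme gene of macrophages and other myeloid cells, was at 5.18, 6.42 and 4.74 in AZD1208 lines, 7.10, 6.97 and 4.8 in vehicle lines and 5.18 in the parental line (0.68). The list's median difference from parental was -0.08 to 0.14 in AZD1208 lines and -0.09 to 0.20 in vehicle lines. Adgre1, a macrophage gene, was at 5.38 to 5.80 in AZD1208 lines, 5.81 to 6.54 in vehicle lines and 5.61 in the parental line (AZD1208 minus vehicle -0.56), and Cd3e differed by 0.25 (limma adjusted p = 1 for both). Of 10 tested endothelial markers 2 had all lines below, Egfl7 (-0.24) and Cdh5 (-0.21), and 0 above, and the list's median was -0.24 to 0.09 in AZD1208 lines and -0.22 to -0.05 in vehicle lines. Of 10 tested fibroblast markers 3 had all lines above, Postn (4.16), Pdgfra (1.68) and Fbln2 (1.17), and 0 below. This list's median was -0.16 to 0.22 in AZD1208 lines and -0.19 to 0.17 in vehicle lines. AZD1208 2 was highest for Postn (12.72, against 7.86 to 10.53 in the other recurrent lines) and Pdgfrb (9.78, against 6.49 to 7.22). It was also highest for Dcn, too dim to be tested (6.68, against 5.30 to 5.83). Vehicle 1 was highest for Pdgfra (10.03) and Fbln2 (9.36). Between AZD1208 and vehicle lines Cdh5 (0.14), Sox18 (0.22), Twist2 (-0.45) and Fbln2 (-0.68) had the smallest p of their lists (limma adjusted p = 1). The part of these genes in the values of Ly6c1, Ly6e and Plaur was not tested.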

How the data were processed

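Total RNA of 9 cultures or technical repeats was measured on Affymetrix Mouse Gene 2.0 ST arrays. The table deposited by the authors holds a log2 intensity for each probe set on each array. Per the submitters' processing notes the authors used oligo. Its version, the background correction, the normalization, the summary method and a genome build are not given in the labels read here.

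The platform annotation gave 1 symbol to 23521 of the 41345 probe sets and several to 1814, which stayed unnamed, and 16010 were unlisted there. The probe set with the highest mean stood for a gene (22180 genes), and the dimmest 30% of genes by mean (below 5.81) were dropped, leaving 15526. The 3 parental arrays were averaged as 1 sample. The 7 samples were fitted with limma 3.58.1 in R 4.3.3, with no covariate beside group (residual degrees of freedom 4, prior 3.36), with Benjamini-Hochberg adjustment over all genes tested and a threshold of 0.05. The procedure was run on simulated data in which each gene was drawn independently. Shifts shared by the genes of a line or array were not simulated, so how the test behaves under them was not measured. P-values measure only the spread between these lines, and the lone parental sample is assumed to vary like them. Both recurrent groups were set against the same parental sample.

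Members and lists were chosen with earlier results of these data known. Named list genes are the 4 largest differences from parental with all lines on one side, and the 2 smallest p between AZD1208 and vehicle. Any other gene named was picked once its values had been seen. Deviations of same-numbered AZD1208 and vehicle lines from their group means correlated at 0.146, 0.118 and 0.532 across genes. Each was over 0.1, but AZD1208 2 correlated more with vehicle 1 (0.264). No label states a pairing, and the main fit did not pair the lines. Blocking on the replicate number was an alternative, beside other scalings, probe set means, array quality weights, no filter, parental arrays as 3 samples, and each line or parental array left out. Order on the chromosome is that of the RefSeq table (GRCm38.p6), where upstream sequences come from the same build. Sequences were aligned with Biopython 1.88.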

Additional observations from a re-analysis of the deposited data

Results flagged for a closer look

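Among the 29 measured members and tested family genes, 4 had 1 recurrent line set apart from the other 5, by a gap, as a share of the whole range, above Dixon's critical value. Chance flags about 1 group in 20. The share over all genes tested is not given, here or for the highest line below. Neither count can therefore be read as a trait of the family. Gml, a GPI-anchored molecule-like gene of the chromosome 15 cluster, was at 7.19 in vehicle 3, against 5.83 to 6.0 in the other recurrent lines and 5.95 in the parental line (gap 0.877 of the range). Slurp1, in the same cluster, was highest in the same line, at 8.30. Ly6g6f was at 6.49 in AZD1208 3, against 6.07 to 6.17 in the other recurrent lines (gap 0.749). AZD1208 3 was the highest line for 17 of these 29 genes, had the lowest array quality weight (0.34), and had genes of a mean under 7 at a median of 0.14 above the parental line. Tex101 was at 8.59 in AZD1208 2, against 6.52 to 7.07 in the other recurrent lines and 6.94 in the parental line (gap 0.735). Ly6c2 was at 6.82 in vehicle 1, against 7.84 to 8.37 in the other recurrent lines and 8.97 in the parental line (gap 0.655). What set these lines apart was not tested.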

How the results depend on the processing

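Differences of Psca, Ly6c1, Ly6e and Plaur from the parental line kept their sign under every scaling and with any line or parental array left out, Psca between -3.36 and -2.74 and Ly6e between 1.41 and 1.57 with arrays left out. No gene passed between AZD1208 and vehicle lines under any alternative. With the replicate number as a block 0 genes passed. In this balanced design the block cannot move an AZD1208 minus vehicle difference (Plaur -0.42, Psca -0.68, as without it). It changes only the SE and leaves fewer degrees of freedom. Array quality weights turned the sign of Ly6c1 (-0.053), Ly6d (-0.055) and Ly6k (-0.028), and put Psca at -1.84. With 1 line left out, AZD1208 minus vehicle ranged from -1.62 to 0.055 for Psca, -0.067 to 0.40 for Ly6c1, -0.11 to 0.17 for Ly6d, -0.033 to 0.38 for Ly6e, -0.053 to 0.097 for Ly6k and -0.31 to 0.017 for Lypd3. It stayed between -0.53 and -0.31 for Plaur. The median over the members ranged from -0.11 to 0.064. Quantile normalization left 0 members without overlap between the groups. The other family genes with all lines on one side numbered 1, or 4 with quantile normalization, 3 with arrays centred on their median and 1 to 8 with a line or parental array left out. Where fewer lines are asked for, more genes meet the criterion by construction. The cause of the other changes was not tested. No background signal per probe set was used, so how far the dimmest genes stood above background was not measured.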
